A study of Mus musculus with 6 samples.

Results

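The genes described here are 40 complement and coagulation factors of mouse liver: the plasma proteases, binding proteins, structural chains and inhibitors of the complement, clotting and fibrinolytic cascades. They were chosen by function and name, with earlier results of these data known. Each was read from the locus of that name that carries an Ensembl transcript. By this rule 36 genes were found by name, and Cfb, F7, Klkb1 and Serpinf2 were found by their transcripts inside a locus named for a neighbouring gene. Because C2 shares its locus with Cfb, and F10 shares its locus with F7, the 40 genes stand at 38 loci of the 42612 in the table, 24822 of which carry an Ensembl transcript.

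Hepatocytes make most of the complement and clotting proteins of blood plasma. Complement is a chain of proteases started by lectins, antibodies or spontaneous turnover of C3, and it ends in a pore built of C5b to C9. Clotting is a chain of vitamin K-dependent and contact-phase proteases that ends when thrombin turns fibrinogen into fibrin, and inhibitors from the same hepatocytes hold both chains in check.

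The libraries came from livers of male mice of the outbred ICR stock, labelled as 8 weeks old. The first group, of 3 mice, received sulfasalazine at 1000 mg/kg by oral gavage for 4 weeks; gut bacteria split this anti-inflammatory drug into sulfapyridine and 5-aminosalicylic acid. The second group, also of 3 mice, received the 0.1% DMSO vehicle in the same volume. Each library is 1 mouse by its label, and the study's title names liver injury by the drug as the question.

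Values are FPKM, fragments per transcript length and per mapped fragments, so genes can be compared per length, but the number of reads behind a library is not known. The libraries' FPKM totals ran from 224434 to 260047. The share of FPKM in loci with an Ensembl transcript ran from 74.7% in sulfasalazine mouse 3 to 89.0% in control mouse 3. Loci at 1 FPKM or more numbered from 12391 in sulfasalazine mouse 3 to 15838 in control mouse 1 and 15903 in sulfasalazine mouse 2. Pairs of libraries of the same group correlated at 0.901 to 0.919 over the tested loci, and pairs of different groups at 0.897 to 0.914. Among hepatocyte markers, Alb, the serum albumin gene, stood at 14959, 15634 and 17554 FPKM in sulfasalazine livers and at 14702, 14900 and 18897 FPKM in control livers. In bulk liver, fewer cells of a type and less RNA per cell cannot be told apart.

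None of the complement and clotting genes passed the threshold between sulfasalazine and control livers, and at 34 of 38 loci the 95% interval of the difference stayed within 2-fold either way. The values farthest apart belonged to C6, C8a and C8b, subunits of the membrane attack complex, whose mean FPKM was 36.8% to 52.8% lower in sulfasalazine livers. C4b, the C1 inhibitor gene Serping1 and F12 had lower values in each sulfasalazine mouse than in any control mouse, by 17.6% to 18.4% of the means, and F9 had higher ones. Fibrinogen, prothrombin, plasminogen, protein C and antithrombin all had overlapping groups.

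All fold changes here are log2 values, sulfasalazine over control, on the log2(FPKM + 1) scale, so that 0 stands for no difference. A locus counts as called when its p from limma, adjusted by Benjamini and Hochberg over all tested loci, lies under 0.05. By limma 0 of the 38 loci were called higher and 0 lower, beside 0.0167% and 0.0% of the 11969 tested loci. The adjusted p of the 38 loci by limma lay between 0.641 and 0.995. At an unadjusted p under 0.05, 0 of the 38 were higher, beside 3.64% of all tested loci, and 2, C6 and C8b, were lower, which is 5.26% beside 3.87%. Groups that did not overlap were found with sulfasalazine higher at 1 locus, 2.63% beside 6.71%, and with sulfasalazine lower at 5 loci, 13.2% beside 6.46%. When 1 mouse was left out at a time, 6 to 10 of the 38 loci were lower without overlap, where 9.69% to 12.3% of all tested loci were, and 1 to 3 were higher, where 10.8% to 12.4% of all tested loci were.

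Signs leaned to the lower side. Of the 38 loci 29 had a negative fold change, 76.3% beside 50.4% of all tested loci, and 9 had a positive one, 23.7% beside 49.6%. Hepatocyte markers leaned the same way, 8 of 10 tested loci being negative with a median of -0.18, and Ahsg and Serpina1a among them had separate groups with lower sulfasalazine values. Hnf4a, also on that list, had separate groups with higher sulfasalazine values. The part of hepatocyte RNA as a whole in the lean was not tested. The median of the 38 was -0.12 with quartiles of -0.25 and -0.03, against a median of -0.002 over all tested loci and of 0.02 over the 1954 loci at least as abundant as the lowest of the 38. Without control mouse 3 the median of the 38 was -0.06, and without control mouse 1 it was -0.18. The 34 loci whose interval lay within 2-fold were 89.5% beside 72.3% of all tested loci, and 18 loci had it within 1.5-fold, 47.4% beside 44.3%.

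**Figure D1:**
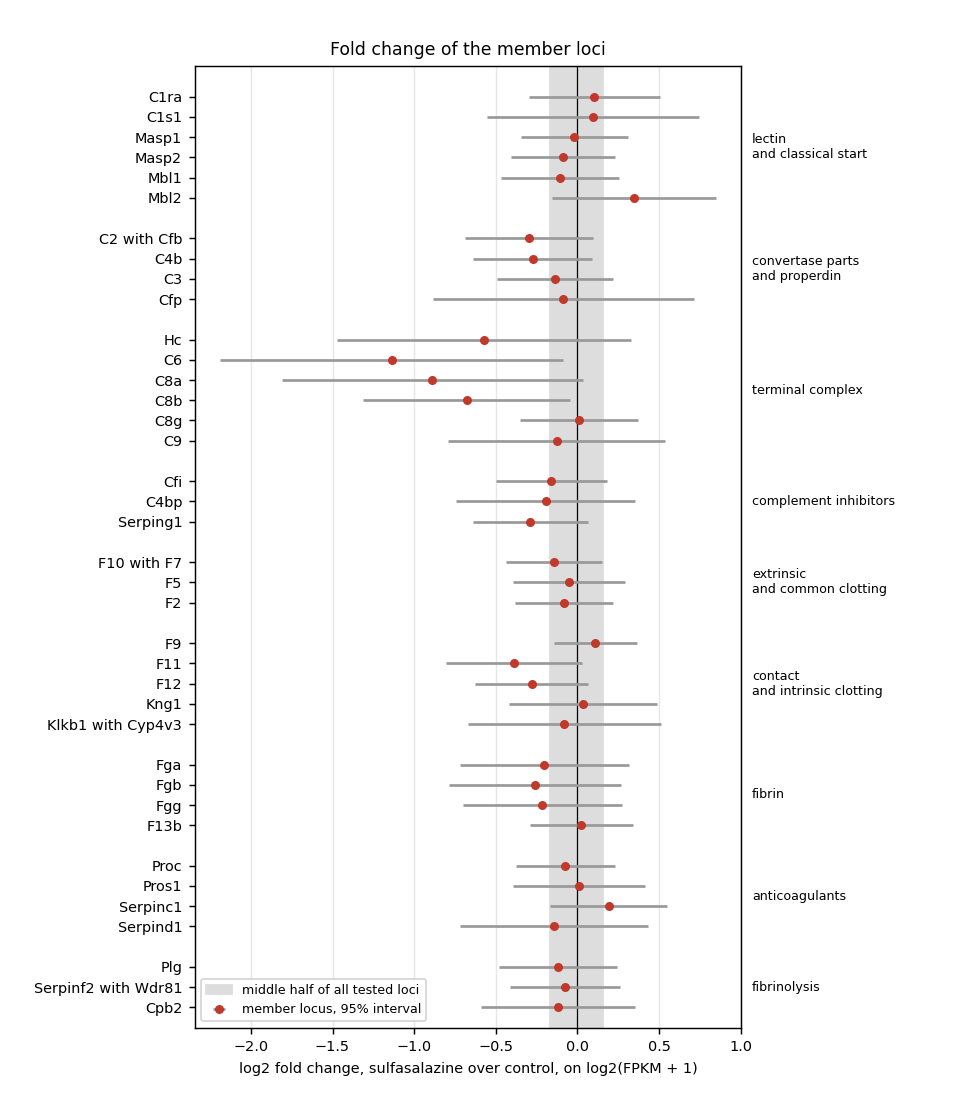
Log2 fold change on log2(FPKM + 1), sulfasalazine over control, of the 38 loci grouped by role, with bars for the 95% interval from limma. Most points sit just left of 0; C6, C8a and C8b lie farthest left, at -1.14, -0.89 and -0.68, and the intervals of C6 and C8b alone end below 0.

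Levels of the 38 loci spanned 9.70 to 1729 FPKM as means over the 6 mice, with a median of 83.0, against a median of 3.0 over all tested loci. All 38 passed the filter of 1 FPKM in at least 3 libraries with every library above it. C3, on which the complement routes converge, had the highest level, and next came the 3 fibrinogen chains and Plg, the plasminogen gene. Masp1, a protease of the lectin route, Pros1, the cofactor of protein C, F11, Cfp and F9 stood lowest, at 9.70 to 14.3 FPKM.

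**Figure D2:**
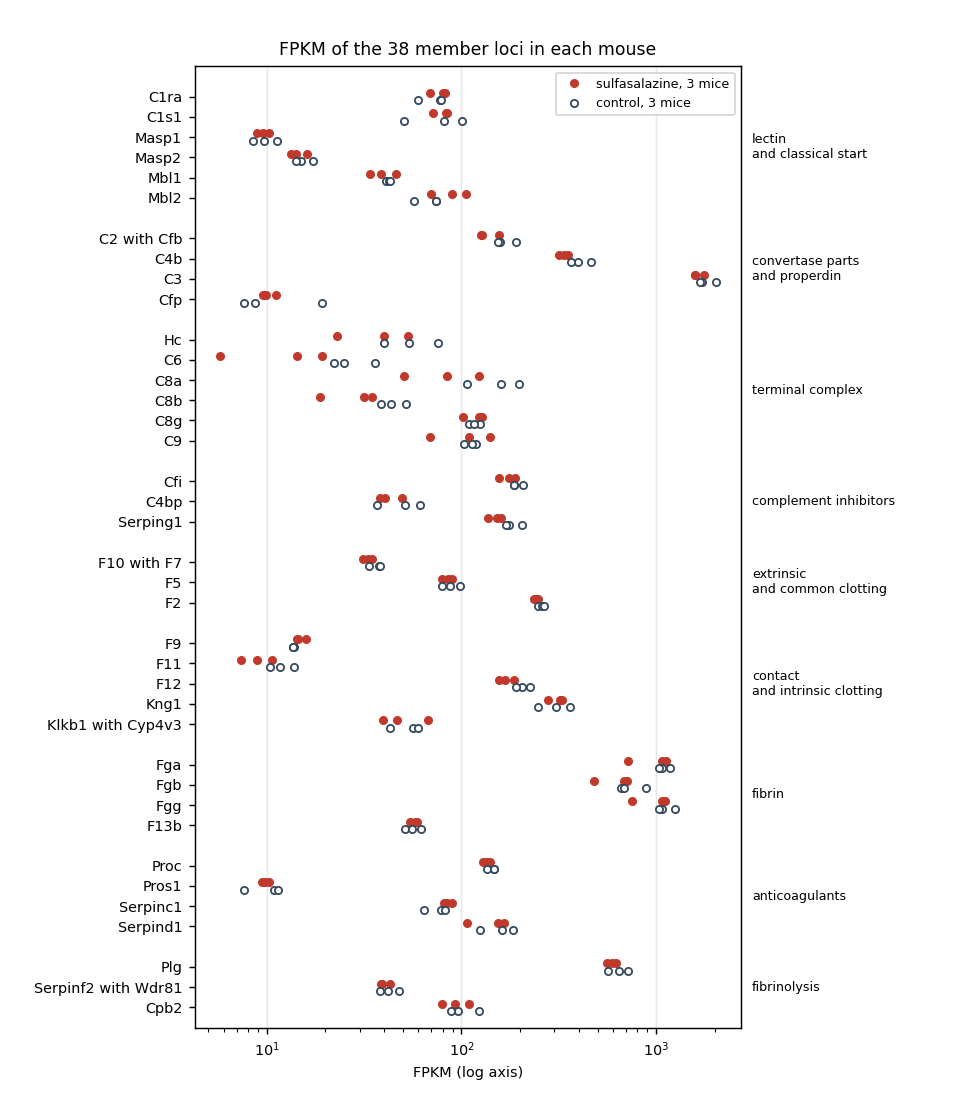
FPKM of the 38 loci in each mouse on a log axis, grouped by role, with points for 3 sulfasalazine mice and 3 control mice. The loci run over levels from 9.70 to 1729 FPKM, and the points of the 6 mice lie far closer together at most loci than at C6.

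Among the genes that start complement, the lectin and classical set of 6 loci had 3 negative and 3 positive fold changes, from -0.11 to 0.35. C1s1, the C1s protease that cleaves C4 and C2, was the most abundant, with 84.8, 83.0 and 71.7 FPKM in sulfasalazine livers and 80.9, 50.5 and 101 FPKM in control livers. The sulfasalazine values lay inside the range of the control values. C1ra, the protease that activates C1s, averaged 76.9 ± 7.22 FPKM in sulfasalazine livers and 71.9 ± 10.5 FPKM in control livers (SD, n = 3 each). C1ra and C1s1 have close copies in the mouse, between which the authors' counting could divide reads, and the same holds for C4b and Kng1.

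Mbl2, a mannose-binding lectin, had the highest fold change of the 38 loci. It had 69.4, 89.1 and 105 FPKM in sulfasalazine livers and 57.0, 74.2 and 74.2 FPKM in control livers. Sulfasalazine mouse 1 lay below control mice 2 and 3, so the groups overlapped. Its fold change was 0.35 with a 95% interval of -0.16 to 0.85 (limma, adjusted p = 0.780). Mbl1, the second mannose-binding lectin gene of the mouse, had 38.4, 33.9 and 45.9 FPKM in sulfasalazine livers against 41.1, 42.5 and 43.0 FPKM in control livers, a fold change of -0.11. The lectin-associated proteases Masp1 and Masp2 had fold changes of -0.02 and -0.09.

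All 4 loci of the convertase parts and properdin had negative fold changes, from -0.30 to -0.09. C4b, the C4 gene of the classical and lectin convertase, lies on chromosome 17 from 34728380 to 34743882 in GRCm38. It had 337, 352 and 317 FPKM in sulfasalazine livers and 395, 366 and 463 FPKM in control livers. Every sulfasalazine value was below every control value. The means were 335 ± 17.6 FPKM in sulfasalazine livers and 408 ± 49.7 FPKM in control livers (SD, n = 3 each), a fold change of -0.28 (SE 0.15; limma, adjusted p = 0.757).

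The locus that pools C2, the protease of that convertase, with Cfb, the protease of the alternative one, and the readthrough gene Gm20547 had a fold change of -0.30. Its values were 156, 128 and 125 FPKM in sulfasalazine livers and 159, 154 and 189.7 FPKM in control livers, and only sulfasalazine mouse 1 reached into the control range. C3 had 1584, 1583 and 1769.7 FPKM in sulfasalazine livers against 1729.6, 1676 and 2034 FPKM in control livers. Sulfasalazine mouse 3 overlapped the controls, and the fold change was -0.14 with a 95% interval of -0.49 to 0.22 (limma, adjusted p = 0.876). Cfp, properdin, which steadies the alternative convertase and is made largely by leukocytes, had 9.58, 11.1 and 9.95 FPKM in sulfasalazine livers and 8.69, 7.63 and 19.1 FPKM in control livers. Control mouse 3 alone was high.

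The terminal complex held the largest differences. Of its 6 loci 5 had negative fold changes, with a median of -0.62. C6, which binds C5b to begin the pore, had 19.2, 5.74 and 14.2 FPKM in sulfasalazine livers and 24.8, 36.1 and 22.1 FPKM in control livers. The groups did not overlap, and sulfasalazine mouse 2 was far below the others. The means were 13.1 ± 6.82 FPKM in sulfasalazine livers and 27.7 ± 7.44 FPKM in control livers (SD, n = 3 each), a fold change of -1.14 (SE 0.43) with a 95% interval of -2.19 to -0.09 (limma, unadjusted p = 0.0381, adjusted p = 0.641). Without sulfasalazine mouse 2 the fold change was -0.68 (limma, adjusted p = 0.798).

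C8a and C8b encode the alpha and beta chains of C8, which is completed by the gamma chain of C8g. C8a had 84.1, 50.9 and 123 FPKM in sulfasalazine livers and 160.4, 197 and 107 FPKM in control livers. The groups overlapped because sulfasalazine mouse 3 was above control mouse 3. C8b had 34.6, 18.7 and 31.4 FPKM in sulfasalazine livers and 38.4, 52.1 and 43.5 FPKM in control livers. Here the groups did not overlap, and sulfasalazine mouse 2 and control mouse 2 were again the lowest and the highest. The fold change was -0.89 for C8a, with a 95% interval of -1.81 to 0.03 (limma, adjusted p = 0.685), and -0.68 for C8b, with an interval of -1.31 to -0.05 (limma, unadjusted p = 0.0394, adjusted p = 0.646). Without sulfasalazine mouse 2 they were -0.56 and -0.42.

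C8g lies on another chromosome and is a lipocalin rather than a pore-forming chain. It had 102, 123 and 128 FPKM in sulfasalazine livers and 124, 109 and 116 FPKM in control livers, a fold change of 0.01 with a 95% interval of -0.35 to 0.37. The groups overlapped throughout. Hc, the mouse gene for C5, had 52.9, 22.8 and 40.0 FPKM in sulfasalazine livers against 53.7, 40.0 and 76.0 FPKM in control livers, a fold change of -0.57 (limma, adjusted p = 0.796). C9, whose copies form the ring of the pore, had 141, 68.7 and 109 FPKM in sulfasalazine livers and 118, 103 and 113 FPKM in control livers. Sulfasalazine mouse 2 had the lowest value of all 6 mice at C6, C8a, C8b, Hc and C9, but not at C8g.

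C6 is known as a gene with higher expression in male than in female mouse liver. Lists of sex-biased liver genes, drawn up after the values had been seen, stood apart in the same mouse. Of 13 male-biased genes 12 were found, and their summed FPKM was 5153, 1999 and 3558 in sulfasalazine livers and 4995, 6855 and 4113 in control livers, lowest in sulfasalazine mouse 2 and highest in control mouse 2. Mup20 and Mup3 were read from the same locus. All 11 tested loci of that list had negative fold changes, beside 50.4% of all tested loci, with a median of -0.41. The smallest difference was that of Serpina1e, at -0.06, whose mean was higher in sulfasalazine livers, 138 FPKM against 128 FPKM in control livers. By limma 0 of the 11 were called. At an unadjusted p under 0.05, 3 were lower, Mup7, Elovl3 and Hsd3b5, where 3.87% of all tested loci were. Summed FPKM of 8 female-biased genes was 29.5, 228 and 69.4 in sulfasalazine livers and 24.7, 19.9 and 43.1 in control livers. Of their 5 tested loci 4 were positive, beside 49.6% of all tested loci, and Cyp3a41a and Sult3a1 were each listed at 0 in 1 library. Their part in the values of C6, C8a and C8b was not tested.

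The stretches of 250 bases before the starts of C6, C8a and C8b are given since these genes held the largest differences, from RefSeq on GRCm38.p6, 5′ to 3′ on the strand of the gene. The starts are those of RefSeq; GENCODE places the start of C6 at 4727175, so the last bases of its window lie inside that gene model. C6 lies at chr15:4726960-4727209 on the plus strand, C8a at chr4:104876399-104876648 on the minus strand and C8b at chr4:104766067-104766316 on the plus strand. Capitals mark matches to motifs of liver transcription factors.
C6: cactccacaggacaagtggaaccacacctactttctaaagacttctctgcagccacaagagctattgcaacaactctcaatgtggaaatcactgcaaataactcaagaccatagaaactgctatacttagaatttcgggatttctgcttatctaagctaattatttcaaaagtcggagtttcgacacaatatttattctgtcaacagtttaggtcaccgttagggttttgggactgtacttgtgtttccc
C8a: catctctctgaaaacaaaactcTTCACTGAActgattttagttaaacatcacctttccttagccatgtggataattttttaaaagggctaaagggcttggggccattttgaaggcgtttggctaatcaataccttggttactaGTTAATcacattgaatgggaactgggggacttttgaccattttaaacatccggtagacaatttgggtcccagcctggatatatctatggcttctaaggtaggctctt
C8b: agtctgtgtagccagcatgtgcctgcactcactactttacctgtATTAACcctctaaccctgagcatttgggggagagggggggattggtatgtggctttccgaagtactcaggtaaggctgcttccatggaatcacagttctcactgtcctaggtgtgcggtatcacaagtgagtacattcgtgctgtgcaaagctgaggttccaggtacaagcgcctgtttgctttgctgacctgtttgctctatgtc
The motifs searched on both strands were TTCNNNGAA for STAT3, CTGGGAA for the IL-6 type II element, TTGCNNAA for C/EBP, GTTAAT for HNF1, and CAAAGTCCA and TGNACTTTG for HNF4. No match overlapped another in the sequences printed. C8a held TTCACTGAA, a STAT3 match, and GTTAAT; C8b held ATTAAC, which is the HNF1 motif on the opposite strand; C6 held none of these letters in this window. STAT3 matches stood in 7.02%, HNF1 matches in 6.43% and C/EBP matches in 9.56% of all 32851 promoters of this length.

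Of the complement inhibitors, Serping1 had the groups apart. It encodes the C1 inhibitor, which also blocks kallikrein and factor XIIa, and had 160.2, 152 and 137 FPKM in sulfasalazine livers and 176, 170.2 and 204 FPKM in control livers. Every sulfasalazine value was below every control value. The means were 149.6 ± 11.9 FPKM in sulfasalazine livers and 183 ± 18.1 FPKM in control livers (SD, n = 3 each), a fold change of -0.29 (SE 0.14; limma, unadjusted p = 0.0904, adjusted p = 0.729). Cfi, the protease that degrades C3b and C4b, was the most abundant of the 3, with 187, 156 and 176 FPKM in sulfasalazine livers against 186, 187 and 207 FPKM in control livers. C4bp, its cofactor for C4b, averaged 42.8 ± 6.14 FPKM in sulfasalazine livers and 49.9 ± 12.5 FPKM in control livers (SD, n = 3 each).

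**Figure D3:**
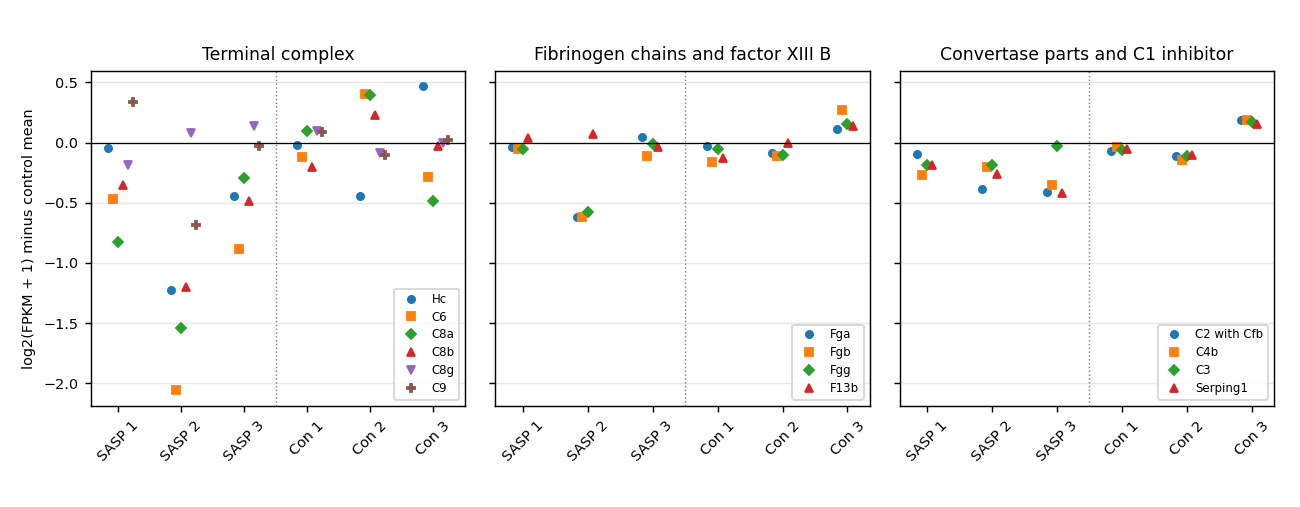
Log2(FPKM + 1) of each mouse minus the control mean, for the terminal complex, for the fibrin genes, and for the convertase parts with the C1 inhibitor. Sulfasalazine mouse 2 is the lowest mouse at C6, C8a, C8b, Hc and C9 and at the 3 fibrinogen chains, while control mouse 3 is the highest at C2 with Cfb, C4b, C3 and Serping1.

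The extrinsic and common clotting loci had fold changes from -0.14 to -0.05. F2, prothrombin, had 248, 242 and 236 FPKM in sulfasalazine livers and 246, 259 and 265 FPKM in control livers. Only control mouse 1 fell among the sulfasalazine values, and the fold change was -0.08 with a 95% interval of -0.38 to 0.22 (limma, adjusted p = 0.905). The locus that pools F7, which tissue factor activates, with F10, the protease of prothrombinase, averaged 32.9 ± 1.78 FPKM in sulfasalazine livers and 36.4 ± 2.37 FPKM in control livers (SD, n = 3 each). F5, the cofactor of prothrombinase, averaged 84.5 ± 5.23 and 88.0 ± 9.61 FPKM in sulfasalazine and control livers.

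In the contact and intrinsic branch, F12 and F9 had separate groups that lay in opposite directions. F12, the contact factor that activates prekallikrein and factor XI, had 186, 167 and 156 FPKM in sulfasalazine livers and 204, 224 and 191 FPKM in control livers. Its fold change was -0.28 (SE 0.14; limma, unadjusted p = 0.0961, adjusted p = 0.732). F9, the hemophilia B factor, had 14.3, 15.9 and 14.4 FPKM in sulfasalazine livers and 13.8, 13.7 and 13.7 FPKM in control livers. The controls were nearly equal and all sulfasalazine values were slightly above them, a fold change of 0.11 with a 95% interval of -0.15 to 0.37 (limma, adjusted p = 0.864).

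Kng1, the kininogen that carries bradykinin, was the most abundant of this branch, with 319, 278 and 330.2 FPKM in sulfasalazine livers and 248, 305 and 363 FPKM in control livers. The sulfasalazine values lay inside the control range. F11, which activates factor IX, had 7.38, 8.90 and 10.6 FPKM in sulfasalazine livers and 10.4, 11.7 and 13.9 FPKM in control livers. Sulfasalazine mouse 3 just passed control mouse 1, and the fold change was -0.39 (SE 0.17; limma, adjusted p = 0.694). The locus of Klkb1, prekallikrein, also holds Cyp4v3 and Gm45753 and averaged 51.0 ± 14.4 FPKM in sulfasalazine livers and 53.2 ± 9.19 FPKM in control livers (SD, n = 3 each).

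The chains of fibrinogen, the precursor of the clot, varied together from mouse to mouse. Fga, the alpha chain, had 1070.5, 713 and 1129 FPKM in sulfasalazine livers and 1076, 1035 and 1183 FPKM in control livers. Fgb, the beta chain, had 711, 479.9 and 680.1 FPKM in sulfasalazine livers and 659.6, 683 and 885 FPKM in control livers. Fgg, the gamma chain, had 1072, 748 and 1108 FPKM in sulfasalazine livers and 1077, 1039 and 1242 FPKM in control livers. Sulfasalazine mouse 2 was the lowest and control mouse 3 the highest in each chain, and the other sulfasalazine mice lay among the controls. The fold changes were -0.20, -0.26 and -0.21 for the alpha, beta and gamma chains, and without sulfasalazine mouse 2 they were 0.004, -0.08 and -0.03. F13b, the carrier subunit of the enzyme that cross-links fibrin, averaged 57.0 ± 2.17 FPKM in sulfasalazine livers and 56.2 ± 5.19 FPKM in control livers (SD, n = 3 each).

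The 3 fibrinogen genes stand side by side on chromosome 3, Fgg from 83007724 to 83015049, Fga from 83026076 to 83033627 and Fgb from 83040141 to 83049863 in GRCm38, with Fgb on the minus strand. The 250 bases before each start are shown, since the chains varied together; the windows are chr3:83025903-83026152 for Fga, chr3:83049864-83050113 for Fgb and chr3:83007474-83007723 for Fgg, from RefSeq on GRCm38.p6, 5′ to 3′ on the strand of the gene with motif matches in capitals. The starts are those of RefSeq, and the end of the Fga window, with its ATTAAC, lies inside the GENCODE gene model.
Fga: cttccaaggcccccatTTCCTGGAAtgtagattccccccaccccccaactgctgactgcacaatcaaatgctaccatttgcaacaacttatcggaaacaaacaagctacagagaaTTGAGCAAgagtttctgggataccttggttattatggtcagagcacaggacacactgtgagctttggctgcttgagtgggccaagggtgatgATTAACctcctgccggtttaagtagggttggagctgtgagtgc
Fgb: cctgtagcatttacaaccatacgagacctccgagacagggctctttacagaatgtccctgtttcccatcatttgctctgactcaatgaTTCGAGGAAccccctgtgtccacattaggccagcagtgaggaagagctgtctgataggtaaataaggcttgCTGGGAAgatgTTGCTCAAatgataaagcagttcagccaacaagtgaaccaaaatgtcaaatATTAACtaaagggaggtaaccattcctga
Fgg: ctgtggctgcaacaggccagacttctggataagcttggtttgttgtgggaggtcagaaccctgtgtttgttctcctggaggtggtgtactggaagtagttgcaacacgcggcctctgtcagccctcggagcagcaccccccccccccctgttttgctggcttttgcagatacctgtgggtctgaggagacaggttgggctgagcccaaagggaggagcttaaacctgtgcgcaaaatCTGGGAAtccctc
Fga held TTCCTGGAA for STAT3, with TTGAGCAA for C/EBP and ATTAAC for HNF1 on the opposite strand. Fgb held TTCGAGGAA for STAT3, CTGGGAA, TTGCTCAA for C/EBP and the opposite-strand ATTAAC. Fgg held CTGGGAA alone, a run found in 9.1% of all promoters. Of the 40 genes 31 had a promoter in the table; C/EBP matches stood in 8, HNF1 matches in 9, STAT3 matches in 6, CTGGGAA in 5, CAAAGTCCA in 0 and TGNACTTTG in 1, F9. CAAAGTCCA stood in 0.384% and TGNACTTTG in 1.19% of all promoters.

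All 3 fibrinolysis loci had small negative fold changes, from -0.12 to -0.08. Plg had 619, 559 and 590.1 FPKM in sulfasalazine livers and 568, 645 and 715 FPKM in control livers. The groups overlapped, and the fold change was -0.12 with a 95% interval of -0.48 to 0.24 (limma, adjusted p = 0.884). Cpb2, the carboxypeptidase that protects fibrin from plasmin, averaged 93.8 ± 14.7 FPKM in sulfasalazine livers and 102 ± 18.0 FPKM in control livers (SD, n = 3 each). The locus that pools Serpinf2, the plasmin inhibitor, with Wdr81 averaged 40.2 ± 2.41 and 42.7 ± 4.92 FPKM in sulfasalazine and control livers.

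The anticoagulant genes had fold changes from -0.14 to 0.19, 2 of the 4 negative. Serpind1, heparin cofactor II, was the most abundant, with 155, 165 and 106 FPKM in sulfasalazine livers and 125, 161 and 183 FPKM in control livers. Each group spanned most of the range of the other. Serpinc1, antithrombin, the main inhibitor of thrombin, had 84.3, 89.4 and 81.2 FPKM in sulfasalazine livers against 78.1, 64.1 and 82.0 FPKM in control livers. Only sulfasalazine mouse 3 fell among the controls, and the fold change was 0.19 with a 95% interval of -0.17 to 0.55 (limma, adjusted p = 0.831). Proc, protein C, averaged 135 ± 5.35 FPKM in sulfasalazine livers and 143 ± 7.06 FPKM in control livers, and its cofactor Pros1 averaged 9.88 ± 0.400 FPKM in sulfasalazine livers and 9.94 ± 2.04 FPKM in control livers (SD, n = 3 each).

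The lean to lower values rested unevenly on the mice. Sulfasalazine mouse 2 had the lowest value of the 6 mice at 14 of the 38 loci, 36.8% where it had the lowest value at 16.1% of all tested loci. Control mouse 3 had the highest value at 22 of the 38 loci, 57.9% where it had the highest at 16.4% of all tested loci, and the lowest at 0. The summed FPKM of the 38 loci was 8223, 6966 and 8293 in sulfasalazine livers and 8299, 8372 and 9675 in control livers. As a share of the FPKM of loci with an Ensembl transcript this was 4.00%, 3.46% and 4.35% in sulfasalazine livers and 4.11%, 4.01% and 4.84% in control livers. In the sums, sulfasalazine mice 1 and 3 were close to control mice 1 and 2, sulfasalazine mouse 2 was far below and control mouse 3 far above. Such sums weigh the most abundant loci most. The median log2 difference of the 38 loci from the control mean was -0.05, -0.17 and -0.12 in sulfasalazine mice. In control mice it was -0.06, -0.03 and 0.14.

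**Figure D4:**
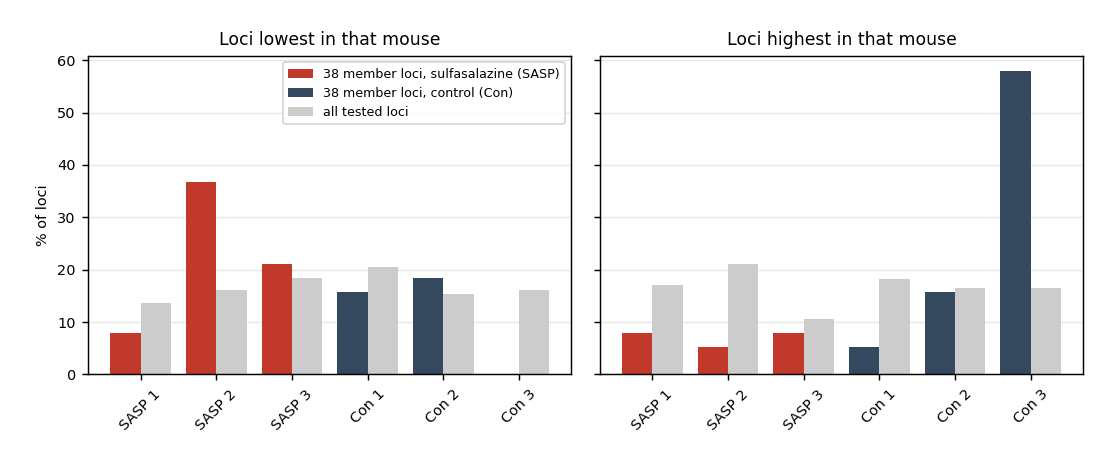
Percentage of loci at which each mouse had the lowest (left) or the highest (right) value of the 6 mice, for the 38 loci and for all 11969 tested loci. Sulfasalazine mouse 2 reached 36.8% of lowest values and control mouse 3 reached 57.9% of highest values among the 38 loci, against 16.1% and 16.4% over all tested loci.

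Summed levels of inflammation genes were highest in control mouse 3, though not every gene was. Summed FPKM of 19 acute phase genes, plasma proteins that hepatocytes make in inflammation, was 2391, 2241 and 1956 in sulfasalazine livers and 3047, 2539 and 4635 in control livers. Of 14 tested loci 11 had negative fold changes, beside 50.4% of all tested loci, with a median of -0.46. By limma 0 were called, and 1, Lrg1, was lower at an unadjusted p under 0.05, where 3.87% of all tested loci were. The groups of Lrg1 overlapped. Hpx, hemopexin, made up 2571 FPKM of the sum in control mouse 3, while Hp and Apcs were highest in control mouse 1 and Hamp was lowest in control mouse 3. Crp and Steap4 were highest in sulfasalazine mouse 3. Il1rn, under 1 FPKM in every mouse and not tested, had separate groups with the sulfasalazine values higher. Apcs and S100a8 of this list were each listed at 0 in 1 library. Summed FPKM of 13 Kupffer cell and macrophage markers was 167, 142 and 154 in sulfasalazine livers and 142, 91.0 and 339 in control livers, with none at 0; Cd163 alone of them was lowest in control mouse 3. Summed FPKM of 8 neutrophil markers was 2.04, 1.21 and 1.24 in sulfasalazine livers and 1.07, 1.69 and 16.8 in control livers; S100a8, Ly6g, Mpo and Elane were listed at 0 in some libraries, and none of the 8 was abundant enough to be tested. Among the neutrophil markers, Cxcr2 was lowest in control mouse 3 and Ly6g was highest in sulfasalazine mouse 2. S100a9 held the largest part of the neutrophil sum in control mouse 3. Both S100a8 and S100a9 stand in the acute phase list and in the neutrophil list, so the sums of these lists are not independent. Control mouse 3 was highest in all 3 sums, but not in these alone. Summed FPKM of the hepatocyte markers was 30253 in control mouse 3, against 24143 to 25837 in the other mice. The stellate, platelet and lymphocyte marker sums were also highest in control mouse 3, and the endothelial sum was highest in sulfasalazine mouse 2. The part of the inflammation genes in the values of C4b, C3, Serping1 and fibrinogen was not tested.

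Ratios between partners inside a library, taken on FPKM + 1, depend little on how libraries are scaled to each other, and 8 were compared. The difference in log2 ratio between sulfasalazine and control livers was tested by a two-sided exact permutation test, which cannot go below 0.1 with 3 mice against 3. Mbl2 over Mbl1 was 0.84, 1.37 and 1.18 in sulfasalazine livers and 0.46, 0.79 and 0.77 in control livers. The groups were separate, with a difference of 0.45 (exact permutation p = 0.1, adjusted over the 8 ratios 0.4). Serpinc1 over F2, an inhibitor over its target, was -1.55, -1.43 and -1.53 in sulfasalazine livers and -1.64, -2.0 and -1.68 in control livers. These groups were separate too, with a difference of 0.27 (exact permutation p = 0.1, adjusted 0.4).

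The chains of C8 and of fibrinogen gave different pictures. C8g over C8a averaged 0.53 ± 0.64 in sulfasalazine livers and -0.37 ± 0.48 in control livers (SD, n = 3 each), a difference of 0.90 with overlapping groups (exact permutation p = 0.2, adjusted 0.533). C8b over C8a differed by 0.21 (exact permutation p = 0.7, adjusted 0.8). Fgg over Fga was 0.01 ± 0.05 in sulfasalazine livers and 0.03 ± 0.04 in control livers (SD, n = 3 each), a difference of -0.01 (exact permutation p = 0.6, adjusted 0.8). Fgb over Fga differed by -0.06, Masp2 over Masp1 by -0.07 and Cfi over C3 by -0.03, each with an adjusted exact permutation p of 0.8.

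**Figure D5:**
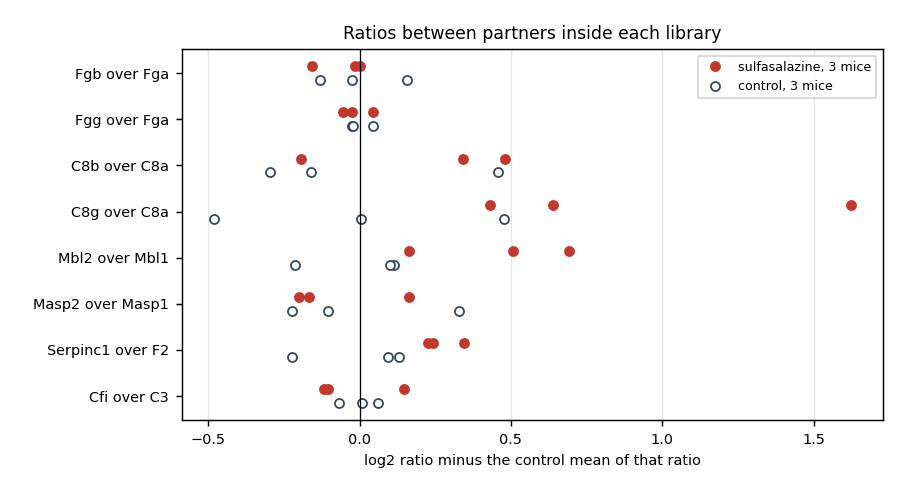
Log2 ratio of 8 pairs of partners in each mouse, minus the control mean of that ratio, with 3 sulfasalazine and 3 control mice per pair. Mbl2 over Mbl1 and Serpinc1 over F2 have every sulfasalazine mouse above every control mouse, and Fgg over Fga stays close to 0 in all 6 mice.

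Other genes of the same cascades were read from lists. Of 22 tested loci of other complement genes 0 were called by limma in either direction. Of them 12 had negative fold changes, beside 50.4% of all tested loci, and 10 positive, beside 49.6%, with a median of -0.05. At an unadjusted p under 0.05, C1rl, a C1r-like protease, was higher and Susd4, a membrane inhibitor of complement, was lower. Over all tested loci 3.64% were higher and 3.87% lower at that threshold. C1rl had 10.5, 30.2 and 39.0 FPKM in sulfasalazine livers and 9.58, 12.1 and 7.94 FPKM in control livers, with overlapping groups. Susd4 had 0.349, 0.609 and 0.557 FPKM in sulfasalazine livers and 1.38, 1.42 and 2.44 FPKM in control livers (limma, adjusted p = 0.419). The groups of Susd4 did not overlap. Its sulfasalazine values were all under the 1 FPKM of the filter and its control values all above it. It was tested only through the group where it was high, so its p and separate groups partly follow from the filter.

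The most abundant genes of that list were Vtn and Clu, plasma inhibitors of the terminal complex. Vtn, vitronectin, had 644, 601 and 602 FPKM in sulfasalazine livers and 730.3, 733 and 886 FPKM in control livers, with no overlap (limma, adjusted p = 0.679). Clu, clusterin, had 257, 176 and 200.4 FPKM in sulfasalazine livers and 242, 265 and 280.5 FPKM in control livers, with sulfasalazine mouse 1 among the controls.

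Of 17 tested loci of other coagulation genes 0 were called by limma. Of them 12 were negative, beside 50.4% of all tested loci, and 5 positive, beside 49.6%, with a median of -0.17. Serpina10, the protein Z-dependent inhibitor of factor Xa, had 15.4, 18.0 and 16.1 FPKM in sulfasalazine livers and 19.9, 22.3 and 22.1 FPKM in control livers. F2r, the thrombin receptor PAR1, had 5.31, 4.43 and 3.73 FPKM in sulfasalazine livers and 7.07, 6.22 and 6.05 FPKM in control livers. Neither overlapped, and their fold changes were -0.36 and -0.45 (limma, unadjusted p = 0.0244 and 0.0180, adjusted p = 0.587 and 0.541). Over all tested loci 3.87% were lower at an unadjusted p under 0.05. Habp2 and Fetub also had separate groups with the sulfasalazine values lower, and Lman1 had separate groups with them higher. Of all tested loci 6.46% were lower without overlap and 6.71% were higher. Pzp, an alpha-macroglobulin, and Hrg, the histidine-rich glycoprotein, were the most abundant, and both had overlapping groups, with fold changes of -0.17 and -0.27.

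The vitamin K cycle, which lets F2, F7, F9, F10, Proc and Pros1 bind calcium, had 0 of 3 tested loci called or with an unadjusted p under 0.05 by limma. Ggcx, the carboxylase, averaged 13.8 ± 0.484 FPKM in sulfasalazine livers and 13.7 ± 0.507 FPKM in control livers. The locus of Vkorc1, the reductase that warfarin blocks, pools Gm21974 and Prss53 and averaged 15.7 ± 1.31 and 13.2 ± 1.45 FPKM in sulfasalazine and control livers (SD, n = 3 each).

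Of 13 tested transcription factors of liver plasma protein genes 0 were called by limma, and 1 in each direction had an unadjusted p under 0.05, the higher one being Cebpa. Over all tested loci 3.64% were higher and 3.87% lower at that threshold. Hnf4a, a master regulator of clotting factor genes, had 93.9, 93.6 and 86.6 FPKM in sulfasalazine livers and 75.3, 83.7 and 68.3 FPKM in control livers. Its groups did not overlap, with the sulfasalazine values higher (limma, fold change 0.27, adjusted p = 0.730). Cebpb averaged 61.7 ± 14.5 FPKM in sulfasalazine livers and 59.1 ± 3.41 FPKM in control livers (SD, n = 3 each). Cebpa, a single-exon gene, was at 62.4, 91.6 and 82.2 FPKM in sulfasalazine livers, and was listed at 0 in control mice 1 and 2 and at 69.6 FPKM in control mouse 3. Control mouse 3 lay above sulfasalazine mouse 1, so the Cebpa groups overlapped, and the difference rests on the values of 0.

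IL-6 signalling drives fibrinogen and other acute phase genes. Of its 6 tested loci 0 were called or had an unadjusted p under 0.05 by limma. The receptor chain Il6st averaged 23.5 ± 2.53 FPKM in sulfasalazine livers and 23.6 ± 4.96 FPKM in control livers (SD, n = 3 each). Stat3, the factor downstream of it, averaged 8.04 ± 1.26 and 9.55 ± 1.30 FPKM in sulfasalazine and control livers.

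Other cell types of liver were read by their markers. In the hepatocyte list 0 of 10 tested loci were called, and Serpina1a, an alpha-1-antitrypsin gene with close copies, had an unadjusted p under 0.05, at 1222, 923 and 976 FPKM in sulfasalazine livers and 1368, 1562 and 1369.8 FPKM in control livers. Summed FPKM was 59.0, 65.9 and 61.9 in sulfasalazine livers and 56.3, 51.9 and 64.0 in control livers for 10 sinusoidal endothelial markers. For 9 stellate cell markers it was 78.4, 62.7 and 68.4 in sulfasalazine livers and 82.6, 80.4 and 102 in control livers. Reln and Dcn, stellate markers, had separate groups with the sulfasalazine values lower, and the endothelial marker Fcgr2b had separate groups with them higher. Of all tested loci 6.46% were lower without overlap and 6.71% were higher. Sums of 8 platelet and 8 lymphocyte markers stayed at or under 7.30 and 3.19 FPKM in every library. By limma 0 loci of these lists were called.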

How the data were processed

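Total RNA of the 6 samples lost its ribosomal RNA before the cDNA libraries were made, per the labels' protocols. The extract protocol mentions an adipose type. The samples were taken as liver from the tissue label and the hepatocyte markers. The authors deposited FPKM for each locus, per the file headers. Tools named in the submitters' processing notes are StringTie, Bowtie2, cutadapt and FastQC, and the build is GRCm38.p5; versions and use of strand are not given in the sources used here, so reads of antisense partners cannot be told apart. Gene names and coordinates came from GENCODE M21 on GRCm38.

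A locus was tested if 3 or more libraries held 1 FPKM or more, which left 11969. The test was limma (version 3.58.1, R 4.3.3) on log2(FPKM + 1), with variances shrunk towards a trend on the mean and p adjusted by Benjamini and Hochberg over all of these. This scale understates the change of low genes. Depth is unknown, so no counting error is given, and errors are the spread between 3 mice a group. Replicate numbers were not used as pairs, as deviations of same-numbered mice correlated at 0.00967, -0.0668 and -0.0222. The fit was run on simulated data with added changes larger than that of any member. That run does not speak to changes of the size seen here. Figures used matplotlib 3.10.9 in Python 3.11.15.

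The members and lists were chosen with earlier results of these data known. Values per mouse are given for members with an unadjusted p under 0.05 or separate groups and for the most abundant of each role; those of further members were chosen after their values were seen. Of each list, genes with an unadjusted p under 0.05 and the 2 most abundant were to be named; acute phase and cell marker genes are given mostly as sums. Other settings varied the pseudocount, the filter, the scaling, the trend, and the loci or mice included. Masp1, C2, C4b, Cfb, Cfi, Serping1, Kng1, Proc and Plg had no entry in the promoter table. A gene of the transcription factor list is not reported here.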

Additional observations from a re-analysis of the deposited data

Results flagged for a closer look

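The comparisons above do not use the assembled loci that are named for a member and carry no Ensembl transcript. There were 14 such loci for 13 genes, with values up to 3.92 FPKM, and 2 were abundant enough to be tested. At 1 of the 14 the sulfasalazine values were all above the control values, and this was 1 of the 2 tested. The share was 6.71% over all tested loci, a set that most of the 14 were too low to enter. The locus named for Plg averaged 1.36 FPKM in sulfasalazine livers, above every control value, with 1.18, 1.42 and 1.48 FPKM in sulfasalazine livers and 0.846, 0.769 and 1.12 FPKM in control livers. Its fold change was 0.31 with an SE of 0.15 (limma, adjusted p = 0.729), while the annotated Plg locus had -0.12. Among the controls only mouse 3 reached the 1 FPKM of the filter, while every sulfasalazine mouse did. This assembled locus was tested through the group where it was high, so its p and separate groups partly follow from the filter.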

How the results depend on the processing

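By limma 0 of the 38 loci were called under each of the 16 alternatives, and the smallest adjusted p of any of them was 0.531, for C6 without sulfasalazine mouse 1. Their median fold change stayed negative, between -0.18 and -0.06. Of the 608 values of single loci under an alternative, 27 changed sign, all of them uncalled. Over all tested loci the 2 called higher became 1 with a pseudocount of 0.1, 0 with no filter, 6 with a filter of 5 FPKM, 23 without the trend, 9 over loci with an Ensembl transcript and 7 with FPKM summed per gene name. The 0 called lower became 1 with the 5 FPKM filter, 22 without the trend and 3 over loci with an Ensembl transcript. A fit with a replicate block called 0 loci higher and changed no call among the 38. Leaving out 1 mouse gave 1 to 8 loci called higher and 0 to 6 called lower; of the 38 loci it left 1 to 3 higher and 6 to 10 lower without overlap, beside 10.8% to 12.4% and 9.69% to 12.3% of all tested loci, a check chosen after seeing the data. Fold changes without 1 mouse ran from -1.47 to -0.68 for C6, from -1.19 to -0.56 for C8a, from -0.84 to -0.42 for C8b and from -0.83 to -0.24 for Hc. The cause was not tested. Unknown depth and 3 mice a group limit what could be detected.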
